A study of Ovis aries with 6 samples.

Results

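Transcripts of 9 sheep genes of the NRF2 pathway and of glutathione synthesis were followed by keratinocyte layer and cell class in the rumen epithelium of lambs. The genes were fixed by name: NFE2L2, KEAP1, GCLC, GCLM, SLC7A11, HMOX1, NQO1, TXNRD1 and SRXN1. All 9 were found among the 26741 genes of the matrices, each matched through its NCBI gene number to a gene symbol. The study examined supplementary feeding of grazing sheep, and the tissue came from the ventral sac of the rumen, the keratinised forestomach. Nuclear RNA of 6 male lambs was sequenced in 10x Genomics droplet libraries, 1 library per animal. The labels put 3 lambs in a group named MGHS and 3 in a group named MGNS, do not spell out either name and give no ages. Tissue was frozen before nuclei were isolated, so the values describe nuclear transcripts, and neither protein nor glutathione was measured.

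NRF2, the product of NFE2L2, is a transcription factor that turns on genes against oxidants and reactive chemicals, and KEAP1 is the sensor protein that holds it in the cytoplasm and marks it for degradation. When oxidants modify KEAP1, NRF2 builds up in the nucleus and raises its targets, in keratinocytes as in many other cells. Glutathione, the main small thiol of cells, is made from cysteine in a first step by glutamate-cysteine ligase. GCLC is the catalytic subunit of that enzyme and GCLM its modifier subunit. SLC7A11 imports cystine, which is reduced to cysteine. HMOX1 degrades haem, NQO1 reduces quinones, TXNRD1 keeps thioredoxin reduced and SRXN1 repairs oxidised peroxiredoxins.

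The libraries held 34418856 to 59997793 UMIs (unique molecular identifiers, counted transcript molecules), and 4830 to 10183 nuclei per animal were kept, 42534 in all. Pairs of libraries shared 19 to 49 barcodes. The labels call the samples rumen epithelial cells, but nuclei named keratinocyte-like made up 13092 of the 42534. Most others carried markers of immune, stromal and vascular cells, and the unnamed clusters 0 and 21 also had keratinocyte markers up. Clusters were named from marker genes. Keratinocyte-like nuclei were basal-like (5422 nuclei in a TP63-led and a PAPSS2-led cluster), spinous-like (2718, DSG1 and DSC1), granular-like (3517, CRISP3) and cycling (1435, TOP2A and CENPF). The PAPSS2-led basal-like cluster, with 3153 nuclei, had 7 basal and 5 spinous markers at least 2-fold up. The spinous-like cluster also had 11 of 18 granular markers up, against 9 of 18 in the granular-like cluster. The borders of the basal-like, spinous-like and granular-like classes are therefore uncertain. In all, 14 classes entered the group test. Each had at least 20 nuclei in every animal, and an unnamed cluster also had to hold over 5% of nuclei. Unnamed clusters 13, 17, 20, 21 and 23 fell under that share and were not tested, and rankings of classes below are among the 14. One of the 14, cluster 0, stayed unnamed: it had a median of 545 UMIs per nucleus, keratinocyte genes in the lead, and 2941 of its 4595 nuclei came from MGHS 3.

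Levels are given as CPM, UMIs of a gene per 1000000 UMIs of all genes, after summing the nuclei of a class within an animal. HMOX1 and SLC7A11 were among the genes used for clustering and the other 7 were not, so differences between classes are descriptions without a test. The members did not share 1 place of highest level.

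**Figure D1:**
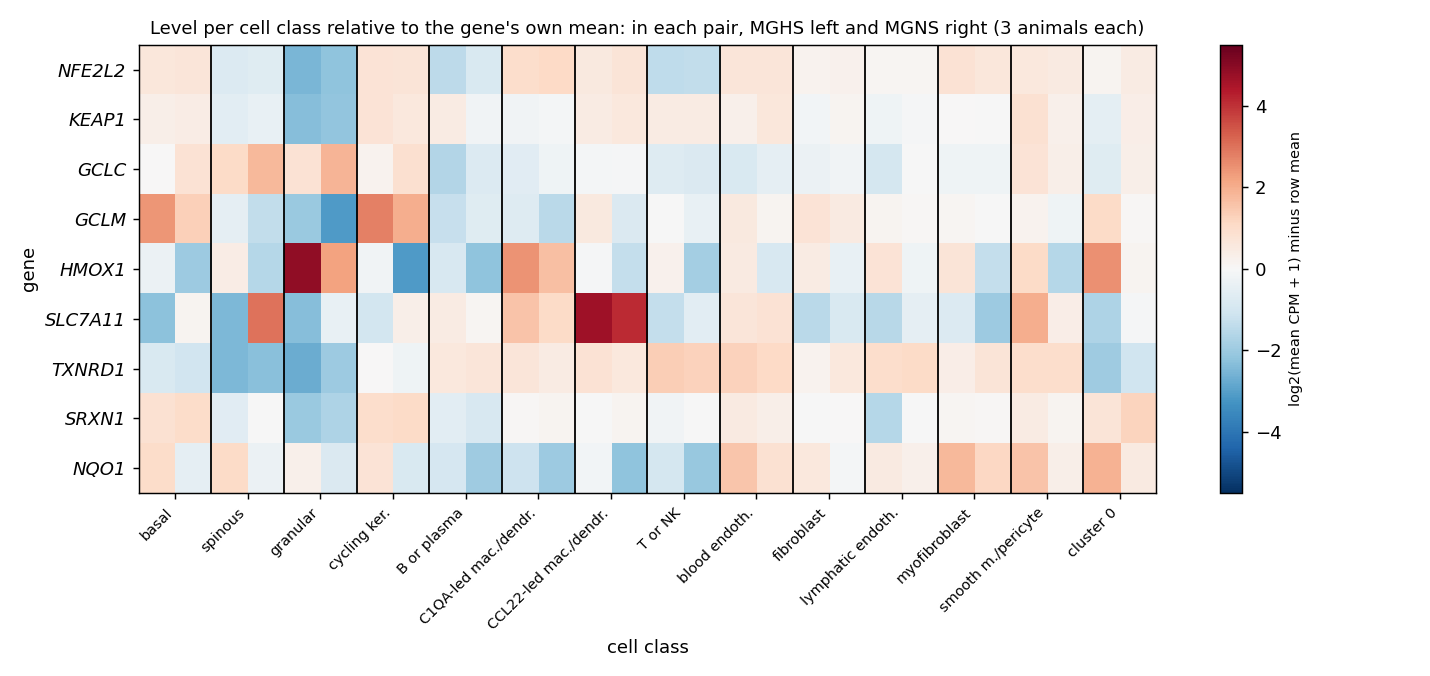
Level of each gene (rows) in 14 cell classes (columns), as log2(mean CPM + 1) minus the mean of that gene's row, so that colours compare classes within a gene and not genes with each other. In each pair of columns MGHS is left and MGNS right (3 animals each). Red cells stand out for GCLM in basal-like and cycling nuclei, HMOX1 in granular-like nuclei and SLC7A11 in CCL22-led nuclei.

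NFE2L2 was highest in C1QA-led macrophage or dendritic-like nuclei at 121 ± 11.6 CPM (SD over 6 animals). It had 97.3 ± 12.2 CPM in cycling, 91.5 ± 3.7 CPM in basal-like, 35.1 ± 3.74 CPM in spinous-like and 10.4 ± 2.24 CPM in granular-like nuclei, the lowest of all classes. Its level thus stepped down from the basal to the granular layer, and neither step overlapped by 1 SD. In the 14-class order, 2 of 13 neighbouring pairs were separated by their SDs: lymphatic endothelial-like from spinous-like, and T or NK-like (21.8 ± 2.32 CPM) from granular-like. KEAP1 varied less, from 32.6 ± 6.25 CPM in cycling to 14.1 ± 3.25 CPM in spinous-like nuclei, with granular-like nuclei apart at 3.43 ± 1.28 CPM.

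The mean levels of the 2 subunits of glutamate-cysteine ligase ran in opposite directions through the layers, though not in every animal. GCLM was highest in cycling (273 ± 84.8 CPM) and basal-like nuclei (196 ± 82.4 CPM), which stood apart from the next class, fibroblast-like nuclei at 77.8 ± 16.8 CPM. It had 26.9 ± 9.14 CPM in spinous-like nuclei and was lowest in granular-like nuclei at 8.09 ± 4.02 CPM. GCLC had 125 ± 79.1 CPM in spinous-like and 122 ± 76.5 CPM in granular-like nuclei, its highest levels, against 67.2 ± 26.8 CPM in cycling and 62.1 ± 28.8 CPM in basal-like nuclei. MGHS 1 and MGHS 2 did not show this rise of GCLC. Basal-like and granular-like nuclei had 39.2 and 33.3 CPM in MGHS 1, and 26.5 and 18.9 CPM in MGHS 2. In every other animal the granular-like level was the higher of these. The other classes lay between 66.4 CPM in smooth muscle or pericyte-like and 20.2 CPM in B or plasma-like nuclei, and no neighbouring pair in the order was separated by its SDs.

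The other targets were each centred on a different class. Granular-like nuclei carried 6229 of the 7390 HMOX1 UMIs of MGHS animals (84.3%) and 378 of the 725 of MGNS animals (52.1%), at 149 ± 148 CPM over all 6. In MGNS 2 the order was reversed, with 5.62 CPM in granular-like and 27.3 CPM in C1QA-led nuclei. C1QA-led nuclei followed at 36.8 ± 12.6 CPM and cluster 0 at 28.8 ± 35.5 CPM, and the other 11 classes had at most 10.2 CPM. SLC7A11 was highest in CCL22-led macrophage or dendritic-like nuclei, a cluster with CD207, CCR7 and CD83 among its leading genes, at 228 ± 120 CPM. Spinous-like nuclei were second at 42.1 ± 69.1 CPM, with at most 1.45 CPM in MGHS animals. TXNRD1 was highest outside the epithelium, at 84.5 ± 9.33 CPM in T or NK-like and 77.5 ± 6.69 CPM in blood endothelial-like nuclei. The cycling class, at 31 ± 8.1 CPM, stood apart from the 4 lowest classes, basal-like (16.9 ± 4.68 CPM), cluster 0, granular-like (5.9 ± 4.25 CPM) and spinous-like (5.61 ± 2.85 CPM). SRXN1 had its highest means in cycling (14 ± 3 CPM), cluster 0 and basal-like nuclei (13.3 ± 2.29 CPM). NQO1 had 32.7 ± 11.3 CPM in myofibroblast-like and 26.9 ± 12.6 CPM in blood endothelial-like nuclei, and between 16.1 and 9.75 CPM in the 4 keratinocyte classes. T or NK-like and C1QA-led nuclei were lowest for NQO1, at 3.47 ± 2.13 and 3.17 ± 2.25 CPM.

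The comparison of the groups asked which of these transcripts differed between MGHS and MGNS lambs within keratinocytes and within other classes. In all keratinocyte-like nuclei together, GCLM, HMOX1 and NQO1 were higher in every MGHS animal than in any MGNS animal, and SLC7A11 was lower in every MGHS animal. None of the 9 genes passed edgeR's quasi-likelihood test at an adjusted p of 0.05, there or in any of the 14 classes, where 101 of 126 gene and class pairs had enough counts to be tested. The smallest adjusted p was 0.0992, for GCLM in cycling nuclei. Few genes of any kind passed in all keratinocyte-like nuclei: 1 of 16328 (0.00612%), a gene lower in MGHS, against 837 with DESeq2 and 47 with limma-voom, and 183 in edgeR without MGHS 3. At an unadjusted p under 0.05 stood 4 of the 9 members and 2683 genes in all (16.4%). The groups did not overlap in CPM for 767 genes that were higher in MGHS (4.7%) and 4095 that were lower (25.1%), so a lower CPM in every MGHS animal was common. The trimmed-mean (TMM) scaling of edgeR moved the median fold change of all genes in these sums up by 0.24 on the log2 scale relative to library totals, and by 0.06 to 0.15 in the 4 layers.

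The shares of all tested genes that passed edgeR's test were 0.0144% in basal-like, 0% in spinous-like, 0% in granular-like and 0.058% in cycling nuclei. Outside the layers they were 0.00853% in T or NK-like, 0.0635% in fibroblast-like, 0.0201% in myofibroblast-like, 0.18% in lymphatic endothelial-like and 0.0303% in cluster 0 nuclei, and 0% in the other 5 classes. DESeq2 called far more: 355 of 13937 genes in basal-like, 218 of 12198 in spinous-like, 369 of 10803 in granular-like and 139 of 10338 in cycling nuclei. With limma-voom, 43 genes passed in basal-like and 24 in cycling nuclei. Genes that were higher in every MGHS animal made up 7.56% of those tested in basal-like, 6.46% in spinous-like, 5.62% in granular-like and 5.59% in cycling nuclei, and genes that were lower in every MGHS animal 18.6% in basal-like and 11.5% in spinous-like nuclei. GCLM lay higher without overlap in all 4 layers, HMOX1 in 3 and NQO1 in 2, and SLC7A11 lay lower without overlap in 2. In 2 of the 3 layers in which HMOX1 lay higher, basal-like and cycling, the granular markers above moved the same way.

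Layer shares and markers listed for other cells moved with these sums. Granular-like nuclei made up 16.5%, 14.8% and 7.33% of nuclei in MGHS 1 to 3, against 4.51%, 2.30% and 6.45% in MGNS 1 to 3. Summed T or NK markers in keratinocyte-like nuclei had 77.35 to 120.1 CPM in MGHS and 155.8 to 233.3 CPM in MGNS, with 9 of 16 markers lower in every MGHS animal. B or plasma markers had 80.19 to 125 CPM in MGHS and 136.5 to 145.9 CPM in MGNS, with 6 of 10 lower. Genes of the neutrophil list had 1520 to 4913 CPM in MGHS and 4945 to 6342 CPM in MGNS, with 1 of 7 lower. Among the 4 layers they were highest in spinous-like nuclei, at 5650 to 12220 CPM in MGHS and 8816 to 9844 CPM in MGNS. T or NK-like nuclei had 328.8 to 1298 CPM in MGHS and 652.4 to 1075 CPM in MGNS. The unnamed cluster 13 had 5 of the 7 genes of this list at least 2-fold up, and the spinous-like cluster 2 of 7. The part of neutrophils in these sums was not tested. Fibroblast markers had 120.3 to 261.1 CPM in MGHS and 82.97 to 104.6 CPM in MGNS, with 4 of 10 higher. No marker of these 4 lists was at 0 in the summed keratinocyte-like nuclei, and the part of other cells in the members' differences was not tested. Markers of other layers moved within single layers as well. Granular markers summed to 1983 to 2763 CPM in basal-like nuclei of MGHS and 915 to 1085 CPM in those of MGNS, with 6 of 18 higher in every MGHS animal. In cycling nuclei they summed to 749.6 to 1138 CPM in MGHS and 321 to 588.5 CPM in MGNS, with 5 of 18 higher. Cycling markers summed to 180.9 to 232.7 CPM in basal-like nuclei of MGHS and 99.41 to 127.1 CPM in those of MGNS, with 7 of 10 higher. The part of these other layers in the values within a layer was not tested.

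**Figure D2:**
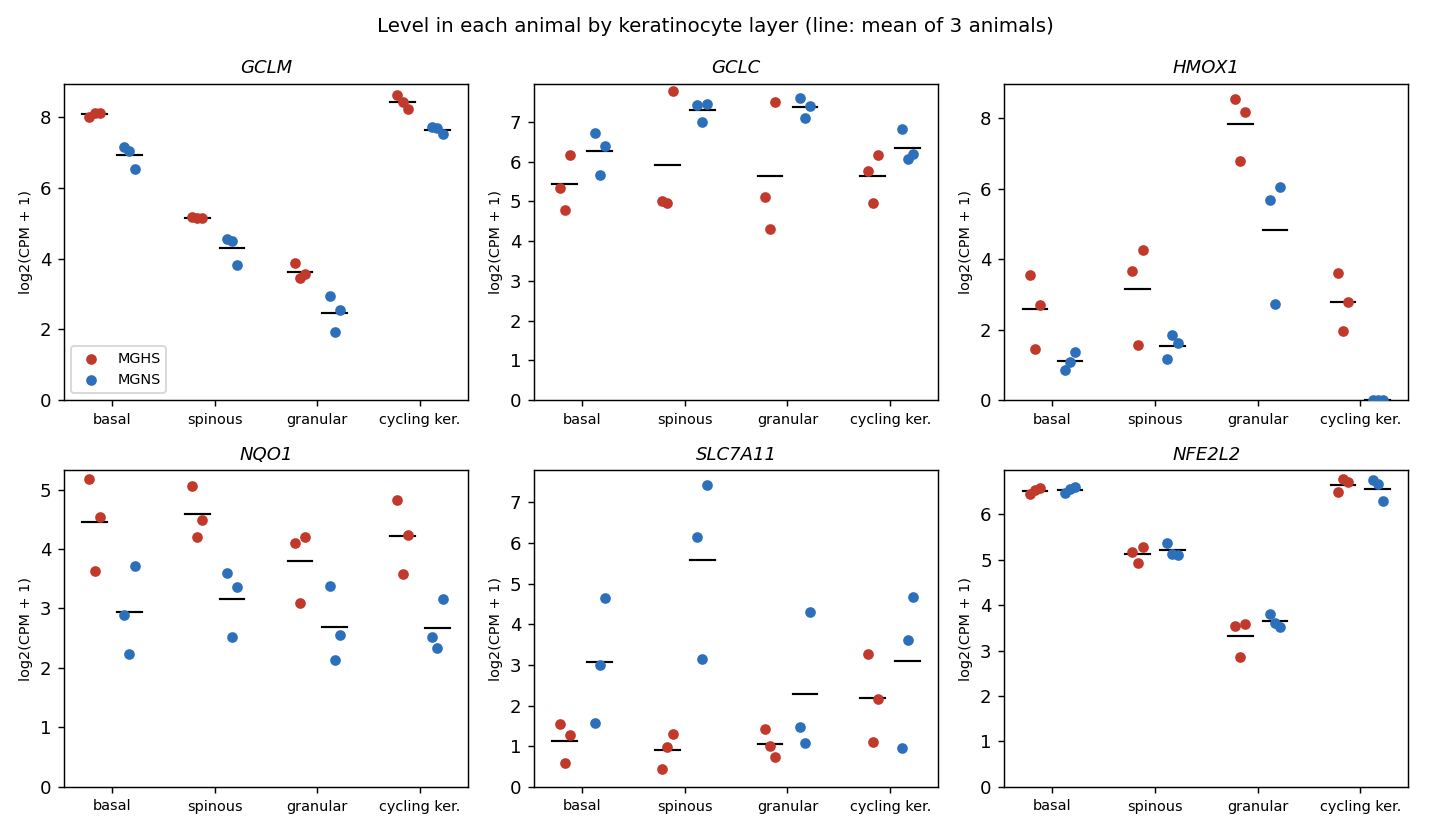
Level of 6 genes in each animal as log2(CPM + 1), by keratinocyte layer, MGHS in red left of MGNS in blue; black lines are means of 3 animals. GCLM lies higher in the 3 MGHS animals in each of the 4 layers, and NFE2L2 overlaps in each. In spinous-like and granular-like nuclei GCLC shows MGHS 3 beside the MGNS animals and apart from the other MGHS animals.

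GCLM, the modifier subunit, separated the groups in each keratinocyte layer. In basal-like nuclei it had 255, 276 and 277 CPM in MGHS 1 to 3, against 143, 132 and 92.3 CPM in MGNS 1 to 3. The MGHS animals lay close together and above all MGNS animals (log2 fold change 1.28 ± 0.20 SE, edgeR adjusted p = 0.128). Cycling markers, which mark the class with the highest GCLM level, were also higher in these sums, as given above. In cycling nuclei it had 391, 344 and 299 CPM in MGHS 1 to 3, against 210, 208 and 183 CPM in MGNS 1 to 3. Here too the groups did not overlap (0.90 ± 0.18 SE, adjusted p = 0.0992). Upper layers had less of the transcript with a like difference. Spinous-like nuclei averaged 34.7 ± 0.307 CPM in MGHS and 19.1 ± 5.2 CPM in MGNS (SD, n = 3 each; log2 fold change 0.93 ± 0.25 SE, adjusted p = 0.258). Granular-like nuclei averaged 11.4 ± 1.92 CPM in MGHS and 4.79 ± 1.95 CPM in MGNS (SD, n = 3 each; 1.40 ± 0.36 SE, adjusted p = 0.153). Markers of basal keratinocytes, where GCLM is high, summed to 303.6 to 411.5 CPM in granular-like nuclei of MGHS and 144.3 to 217.3 CPM in those of MGNS, and their part in the granular-like value was not tested.

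Fitted apart, both basal-like clusters gave a GCLM difference in the same direction. The TP63-led cluster had 1.03 ± 0.20 SE (edgeR adjusted p = 0.163, 0.0336% of genes called) and the PAPSS2-led cluster 1.51 ± 0.20 SE (adjusted p = 0.0740, 0.0401% called). The call depended on the tool. GCLM passed with DESeq2 in basal-like (adjusted p = 9.51e-06) and cycling nuclei (adjusted p = 0.00313), and with limma-voom in the same classes (adjusted p = 0.0403 and 0.0278). With the 4 layers weighted equally in a limma-voom fit that treated layers of an animal as correlated, the average difference was 1.16 ± 0.17 SE (adjusted p = 0.00110). How many of all genes passed in that average is not given here.

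Outside the named keratinocyte layers, GCLM separated the groups in 3 classes. T or NK-like nuclei had 43.2, 46.9 and 55.8 CPM in MGHS 1 to 3, against 39.1, 39.9 and 33.1 CPM in MGNS 1 to 3, without overlap (0.33 ± 0.17 SE, edgeR adjusted p = 0.764), where 7.01% of tested genes lay higher in this way. Blood endothelial-like nuclei had 80.6, 58.6 and 75.6 CPM in MGHS 1 to 3, against 57.1, 57.8 and 49.7 CPM in MGNS 1 to 3 (0.38 ± 0.20 SE, adjusted p = 0.626), with 7.67% of genes higher without overlap. These values were smaller than those in the keratinocyte layers, a contrast that was not tested. CCL22-led nuclei had 36.7, 74.8 and 109 CPM in MGHS 1 to 3, against 25, 39.2 and 20.8 CPM in MGNS 1 to 3 (1.28 ± 0.41 SE, adjusted p = 0.361). There MGHS 1 lay below MGNS 2. In cluster 0, where 3.86% of genes were higher without overlap, GCLM had 90.6, 114 and 105 CPM in MGHS 1 to 3, against 50.4, 72.1 and 31.4 CPM in MGNS 1 to 3 (1.24 ± 0.30 SE, adjusted p = 0.148). Over the 14 classes the fitted value was above 0 in 13, the exception being B or plasma-like nuclei.

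GCLC, the catalytic subunit, split the MGHS animals. In granular-like nuclei it had 33.3, 18.9 and 181 CPM in MGHS 1 to 3, against 192, 136 and 169 CPM in MGNS 1 to 3. MGHS 1 and MGHS 2 were far below the MGNS animals while MGHS 3 lay among them (log2 fold change -1.10 ± 0.66 SE, edgeR adjusted p = 0.516). Spinous-like nuclei showed the same split, with 31, 30 and 220 CPM in MGHS 1 to 3, against 170, 126 and 174 CPM in MGNS 1 to 3 (-0.63 ± 0.77 SE, adjusted p = 0.783). In basal-like nuclei it had 39.2, 26.5 and 70.9 CPM in MGHS 1 to 3, against 104, 50.1 and 82.3 CPM in MGNS 1 to 3 (-0.65 ± 0.42 SE, adjusted p = 0.472). In all keratinocyte-like nuclei the value was -0.75 ± 0.54 SE (adjusted p = 0.492), and without MGHS 3 it was -1.65 (adjusted p = 0.0667). T or NK-like nuclei had 23, 18 and 41 CPM in MGHS 1 to 3, against 25.1, 24.7 and 26.8 CPM in MGNS 1 to 3, and overlapped. GCLC was lower in every MGHS animal in 2 other classes. Lymphatic endothelial-like nuclei had 13.3, 27.6 and 26.6 CPM in MGHS 1 to 3, against 65.7, 31 and 36.2 CPM in MGNS 1 to 3 (-0.91 ± 0.41 SE, edgeR adjusted p = 0.570), where 8.11% of tested genes lay lower in this way. C1QA-led nuclei had 30, 27.2 and 30.2 CPM in MGHS 1 to 3, against 40.8, 31.6 and 43 CPM in MGNS 1 to 3 (-0.44 ± 0.23 SE, adjusted p = 0.845), where 4.38% did.

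GCLC was also set against GCLM within the same nuclei, a ratio chosen after the levels had been seen and given without a test. It separated the groups in 3 layers, where GCLM alone did so in 4 and GCLC alone in 0. In basal-like nuclei there were 15.4, 9.60 and 25.6 GCLC UMIs per 100 GCLM UMIs in MGHS 1 to 3, against 72.5, 37.8 and 89.2 in MGNS 1 to 3. In granular-like nuclei there were 245, 191 and 1686 in MGHS 1 to 3, against 2860, 4860 and 3474 in MGNS 1 to 3. The ratio was lower in every MGHS animal than in any MGNS animal in 6 of 14 classes and overlapped in the other 8, spinous-like nuclei among them, while GCLM alone separated the groups in 7 of 14.

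SLC7A11, the cystine importer, had 2.1, 0.813 and 1.64 CPM in all keratinocyte-like nuclei of MGHS 1 to 3, against 19.3, 7.12 and 67.1 CPM in MGNS 1 to 3 (-4.15 ± 0.88 SE, edgeR adjusted p = 0.158). The gap was widest in spinous-like nuclei, with 0.365, 0.969 and 1.45 CPM in MGHS 1 to 3, against 70.1, 7.85 and 172 CPM in MGNS 1 to 3. These levels rest on 1, 2 and 8 UMIs in MGHS 1 to 3 and on 227, 78 and 905 UMIs in MGNS 1 to 3. The groups did not overlap, but the MGNS animals spread widely, and MGNS 2 lay nearer the MGHS animals than the other MGNS animals (log2 fold change -6.24 ± 1.29 SE, edgeR adjusted p = 0.223). In basal-like nuclei it had 1.90, 0.499 and 1.41 CPM in MGHS 1 to 3, against 1.96, 6.92 and 24.2 CPM in MGNS 1 to 3. MGHS 1 lay just under MGNS 1 (-3.01 ± 0.92 SE, adjusted p = 0.241), and without MGNS 3 the value was -1.65. Granular-like nuclei had 28 UMIs in MGHS and 79 in MGNS, 73 of them from MGNS 3, too few in most animals to be tested. Cycling nuclei overlapped, with 8.65, 1.16 and 3.45 CPM in MGHS 1 to 3, against 0.947, 11.3 and 24.5 CPM in MGNS 1 to 3. DESeq2 called SLC7A11 lower in MGHS in spinous-like (adjusted p = 0.000241) and basal-like nuclei (adjusted p = 0.0119).

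The class with the highest SLC7A11 level did not share this difference. CCL22-led nuclei had 442, 116 and 256 CPM in MGHS 1 to 3, against 134, 166 and 252 CPM in MGNS 1 to 3. The groups overlapped and the fitted value was above 0 (0.46 ± 0.45 SE, edgeR adjusted p = 0.813). Smooth muscle or pericyte-like nuclei had 52.7, 7.5 and 67.4 CPM in MGHS 1 to 3, against 5.38, 9.31 and 24.1 CPM in MGNS 1 to 3 (1.58 ± 0.81 SE, adjusted p = 0.594). T or NK-like nuclei, at a low level, had 4.73, 3.13 and 1.99 CPM in MGHS 1 to 3, against 5.02, 4.95 and 8.61 CPM in MGNS 1 to 3 (-0.90 ± 0.44 SE, adjusted p = 0.755). There SLC7A11 was lower in every MGHS animal, as were 4.62% of tested genes. A difference between these classes and keratinocytes in the group effect was not tested.

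HMOX1, which breaks haem down to biliverdin, iron and carbon monoxide, was higher in MGHS granular-like nuclei, its main site. It had 375, 109 and 289 CPM in MGHS 1 to 3, against 50, 5.62 and 65.4 CPM in MGNS 1 to 3. The lowest MGHS animal lay above the highest MGNS animal, and the animals of each group differed several-fold among themselves (log2 fold change 2.81 ± 0.74 SE, edgeR adjusted p = 0.168). DESeq2 called it in this class (adjusted p = 0.00492). In all keratinocyte-like nuclei the fitted value was larger, 3.76 ± 0.86 SE (adjusted p = 0.161). In those sums the MGHS animals also had the larger share of granular-like nuclei.

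A finer clustering split most of the granular-like class in 3, a choice made after the data had been seen, and 0%, 0.0128% and 0% of genes passed in these parts. HMOX1 had a fitted value above 2 in each. The FBXO32-led part held 540, 672 and 266 nuclei in MGHS 1 to 3, against 48, 27 and 92 in MGNS 1 to 3. HMOX1 there had 533, 151 and 475 CPM in MGHS 1 to 3, against 44, 0 and 154 CPM in MGNS 1 to 3 (2.52 ± 0.98 SE, edgeR adjusted p = 0.451). The part led by UNC79 and SLC26A3 had 126, 11.1 and 107 CPM in MGHS 1 to 3, against 5.36, 3.55 and 24.3 CPM in MGNS 1 to 3 (2.63 ± 0.90 SE, adjusted p = 0.439). The CHI3L2-led part had 449, 97.4 and 419 CPM in MGHS 1 to 3, against 132, 7.18 and 63.9 CPM in MGNS 1 to 3 (2.1 ± 0.90 SE, adjusted p = 0.638). In each part MGHS 2 overlapped the range of the MGNS animals.

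**Figure D3:**
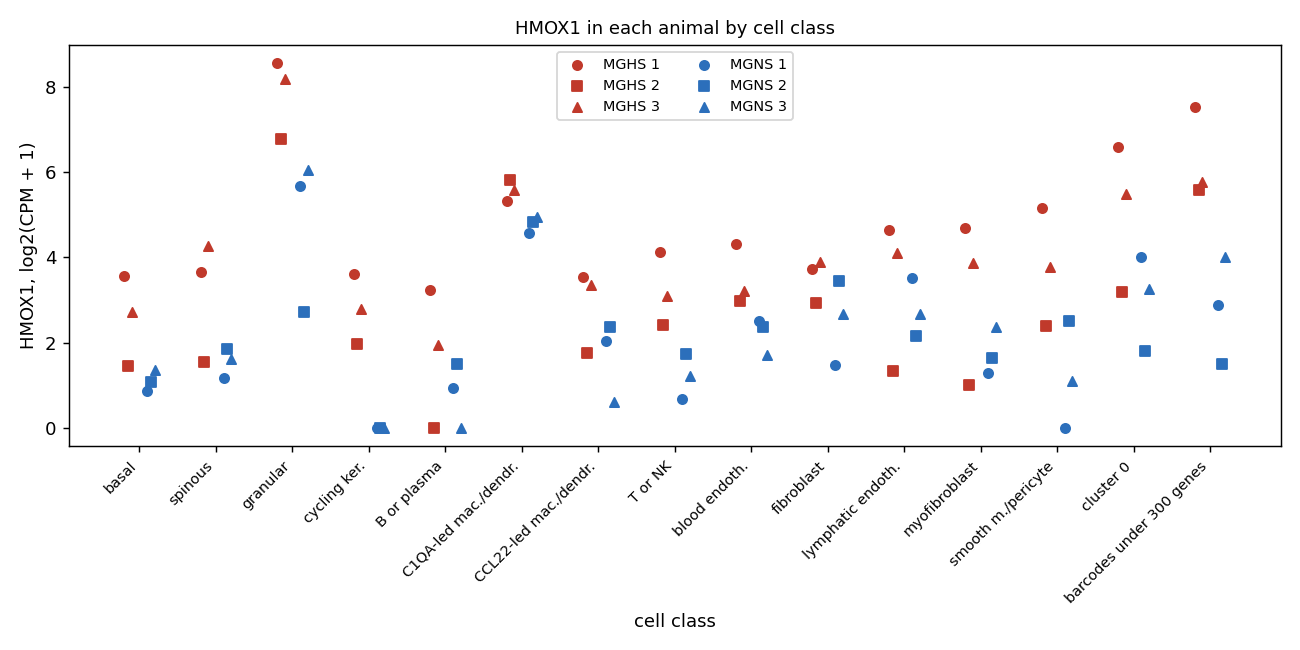
HMOX1 in each animal as log2(CPM + 1) by cell class, with the barcodes of under 300 genes at the right; MGHS in red left of MGNS in blue, and marker shapes give the animal number. Granular-like nuclei and barcodes under 300 genes are high in the 3 MGHS animals, and C1QA-led nuclei are high in all 6 animals.

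The same direction was seen at low HMOX1 levels in other classes and in RNA outside the kept nuclei. Barcodes with under 300 genes, which were left out of all classes, had 182, 46.9 and 53.5 HMOX1 CPM in MGHS 1 to 3, against 6.37, 1.82 and 15.2 CPM in MGNS 1 to 3. Of 9508 genes with at least 10 UMIs in at least 3 libraries of these barcodes, 3.65% were higher and 26% lower in every MGHS library. T or NK-like nuclei had 16.5, 4.30 and 7.57 CPM in MGHS 1 to 3, against 0.602, 2.32 and 1.32 CPM in MGNS 1 to 3 (2.63 ± 0.62 SE, edgeR adjusted p = 0.398). Per 1000 UMIs of SAMD8, the gene that led the granular-like cluster, T or NK-like nuclei held 59.0, 20.04 and 31.5 HMOX1 UMIs in MGHS 1 to 3, against 7.01, 35.1 and 8.87 in MGNS 1 to 3. In the barcodes under 300 genes the same ratio was 53.8, 25.7 and 33.6 in MGHS 1 to 3, against 6.25, 3.84 and 12.7 in MGNS 1 to 3. The ratios in T or NK-like nuclei were close to those of the barcodes except in MGNS 2, whose value rests on 15 HMOX1 UMIs. In basal-like nuclei the ratio was 65.0, 24.2 and 50.2 in MGHS 1 to 3, against 16.4, 27.4 and 26.3 in MGNS 1 to 3, so that the groups, apart in CPM, overlapped. In spinous-like nuclei, where CPM overlapped, it was 53.6, 11.9 and 35.5 in MGHS 1 to 3, against 2.77, 6.45 and 5.19 in MGNS 1 to 3. In granular-like nuclei it was 21.9, 6.43 and 18.96 in MGHS 1 to 3, against 3.16, 0.588 and 4.82 in MGNS 1 to 3, without overlap. Cycling nuclei had 53 HMOX1 UMIs in MGHS and 0 in MGNS, at least 7.94-fold higher in MGHS against a floor of 3 counts over the MGNS group, which covers counting error only. Per 1000 SAMD8 UMIs they held 90.9, 36.8 and 47.7 HMOX1 UMIs in MGHS 1 to 3. The MGNS value of 0 stood beside only 58, 38 and 91 SAMD8 UMIs in MGNS 1 to 3. How much of the HMOX1 in these classes came from free RNA was not tested.

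C1QA-led nuclei were among the classes that did not follow that ratio. They held 238, 353 and 267 HMOX1 UMIs per 1000 SAMD8 UMIs in MGHS 1 to 3, against 288, 489 and 316 in MGNS 1 to 3, far above the barcodes under 300 genes in every animal. Tissue macrophages are known to take up and degrade haem, but the source of HMOX1 in these classes was not tested. In C1QA-led nuclei HMOX1 had 39.2, 55.5 and 46.4 CPM in MGHS 1 to 3, against 22.6, 27.3 and 29.6 CPM in MGNS 1 to 3. The groups did not overlap, and the difference did not pass (log2 fold change 0.78 ± 0.24 SE, edgeR adjusted p = 0.727). In this class 7.16% of all tested genes were higher in every MGHS animal.

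NQO1, which reduces quinones with 2 electrons at a time, had a higher mean in MGHS in all 14 classes. In spinous-like nuclei it had 32.4, 17.4 and 21.5 CPM in MGHS 1 to 3, against 11.1, 4.73 and 9.31 CPM in MGNS 1 to 3. The groups did not overlap (log2 fold change 1.60 ± 0.37 SE, edgeR adjusted p = 0.228). In cycling nuclei it had 27.3, 11 and 17.8 CPM in MGHS 1 to 3, against 4.74, 4.05 and 7.96 CPM in MGNS 1 to 3, again without overlap (1.81 ± 0.43 SE, adjusted p = 0.151). Basal-like nuclei had 35, 11.4 and 22.3 CPM in MGHS 1 to 3, against 6.38, 3.73 and 12.1 CPM in MGNS 1 to 3 (1.74 ± 0.53 SE, adjusted p = 0.235). MGHS 2 was the lowest MGHS animal in each of these layers and lay below MGNS 3 in the basal one. Granular-like nuclei had 16.2, 7.48 and 17.3 CPM in MGHS 1 to 3, against 9.38, 3.37 and 4.85 CPM in MGNS 1 to 3 (1.34 ± 0.41 SE, adjusted p = 0.219). With the 4 layers weighted equally the limma-voom difference was 1.75 ± 0.34 SE (adjusted p = 0.00930), and DESeq2 called NQO1 in basal-like (adjusted p = 0.0303) and spinous-like nuclei (adjusted p = 0.0205).

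Outside the named layers, NQO1 did not overlap between groups in 3 classes. T or NK-like nuclei had 4.39, 4.30 and 6.77 CPM in MGHS 1 to 3, against 2.61, 0.773 and 1.99 CPM in MGNS 1 to 3 (1.51 ± 0.51 SE, edgeR adjusted p = 0.568). Cluster 0 had 65.6, 28.3 and 35.7 CPM in MGHS 1 to 3, against 17.6, 9.94 and 20 CPM in MGNS 1 to 3 (1.63 ± 0.44 SE, adjusted p = 0.192). The third was smooth muscle or pericyte-like nuclei, with 30.1, 22.5 and 49.1 CPM in MGHS 1 to 3, against 21.5, 4.65 and 14.9 CPM in MGNS 1 to 3 (1.41 ± 0.50 SE, edgeR adjusted p = 0.420), where 5.98% of tested genes lay higher in this way. In myofibroblast-like nuclei, its highest class, it had 42.2, 34.8 and 43.4 CPM in MGHS 1 to 3, against 37.7, 23.2 and 15 CPM in MGNS 1 to 3 (0.75 ± 0.34 SE, adjusted p = 0.421). MGHS 2 lay below MGNS 1 there. Over the 10 classes with enough counts its fitted values ran from 0.71 to 1.81, 7 of them at an unadjusted p under 0.05.

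**Figure D4:**
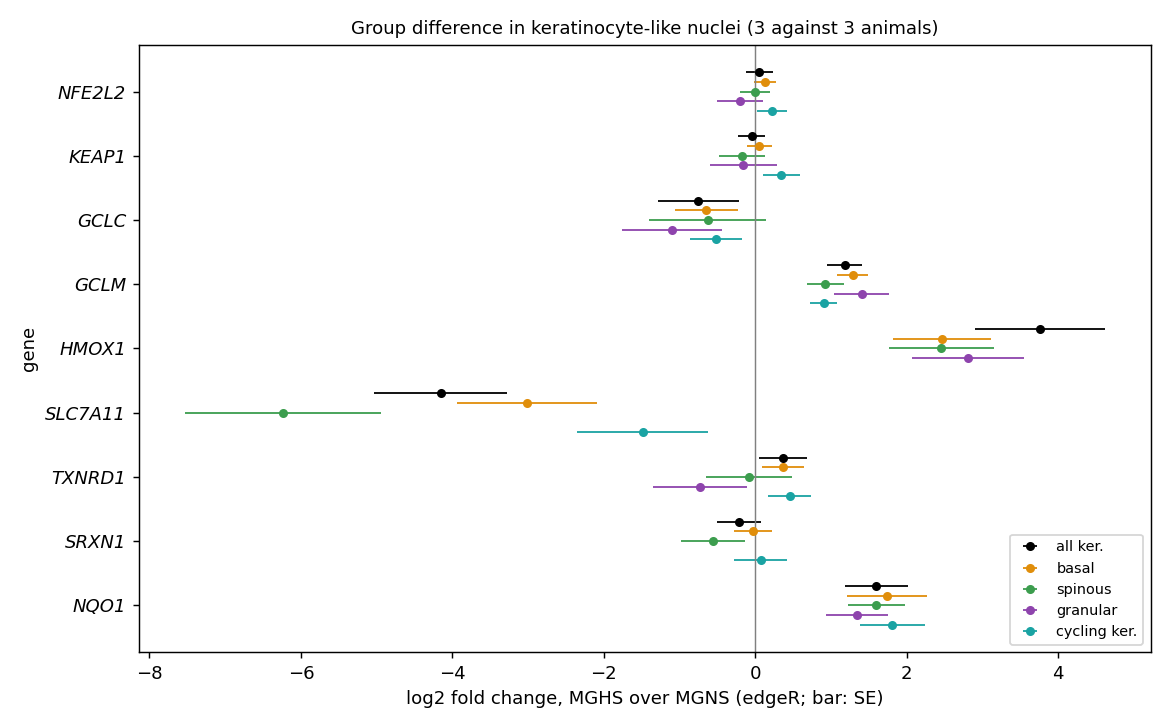
Log2 fold change of each gene, MGHS over MGNS, in all keratinocyte-like nuclei and in each layer, with SE bars (edgeR, 3 against 3 animals); genes with too few counts in a layer have no point. GCLM, HMOX1 and NQO1 lie above 0 and SLC7A11 below 0 in every fit shown, while NFE2L2, KEAP1, TXNRD1 and SRXN1 lie between -0.73 and 0.45.

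The transcription factor and its sensor showed no separation of the groups in keratinocytes. NFE2L2 in basal-like nuclei had 86.2, 92.1 and 94.4 CPM in MGHS 1 to 3, against 88, 92.6 and 95.7 CPM in MGNS 1 to 3 (log2 fold change 0.13 ± 0.15 SE, edgeR adjusted p = 0.684). Its fitted values over the 14 classes ran from -0.24 to 0.22, and its value in all keratinocyte-like nuclei was 0.05 with TMM and -0.18 with library totals, a move no larger than the shift of 0.24 that the scaling gave all genes. NFE2L2 was higher in every MGHS animal in 1 class, myofibroblast-like nuclei, with 94.1, 109 and 104 CPM in MGHS 1 to 3, against 88.4, 89.5 and 93.2 CPM in MGNS 1 to 3 (0.21 ± 0.18 SE, adjusted p = 0.673). The share of all genes higher in this way there is not given here. KEAP1 in basal-like nuclei had 28, 24.1 and 22.6 CPM in MGHS 1 to 3, against 25.2, 31.2 and 23.4 CPM in MGNS 1 to 3 (0.05 ± 0.17 SE, adjusted p = 0.896). KEAP1 was lower in every MGHS animal in 1 class, cluster 0, with 14.6, 11.1 and 14.5 CPM in MGHS 1 to 3, against 27.7, 27.3 and 22.8 CPM in MGNS 1 to 3 (-0.75 ± 0.36 SE, adjusted p = 0.488), a class in which 13.2% of tested genes lay lower in this way.

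The thioredoxin-side targets overlapped between groups in the keratinocyte layers. TXNRD1 in basal-like nuclei had 19.8, 12.9 and 21.8 CPM in MGHS 1 to 3, against 11.6, 21.8 and 13.8 CPM in MGNS 1 to 3 (0.36 ± 0.28 SE, edgeR adjusted p = 0.537). In T or NK-like nuclei, its highest class, it had 74.9, 85.6 and 101 CPM in MGHS 1 to 3, against 85.7, 83.8 and 75.8 CPM in MGNS 1 to 3 (0.04 ± 0.15 SE, adjusted p = 0.976). SRXN1 in basal-like nuclei had 11, 10.1 and 16.2 CPM in MGHS 1 to 3, against 14.6, 13.5 and 14.4 CPM in MGNS 1 to 3 (-0.03 ± 0.25 SE, adjusted p = 0.963). SRXN1 was the least counted member, with 1719 UMIs over all nuclei, and had enough counts in 7 of the 14 classes.

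Whether the group difference varied by layer was tested directly, with the animal as a term, against the basal-like layer. No member passed for the spinous-like, granular-like or cycling layer, while 0, 339 (2.21%) and 0 of 15347 genes passed. SLC7A11 in spinous-like nuclei had the smallest p of the members, with a group effect that differed from that in basal-like nuclei by -3.11 ± 1.26 SE (edgeR adjusted p = 0.661). For GCLM the difference in group effect was -0.39 ± 0.25 SE in spinous-like, 0.17 ± 0.30 SE in granular-like and -0.37 ± 0.24 SE in cycling nuclei. Without MGHS 3, GCLC passed in granular-like nuclei, with a difference of -1.17 ± 0.29 SE (adjusted p = 0.0416), against -0.78 ± 0.41 SE (adjusted p = 0.371) over all animals. How many of all genes passed without MGHS 3 is not given here, so that call cannot be read as particular to GCLC.

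Genes that work beside the members were described from 9 lists of 122 genes, chosen with earlier results of these data known. In all keratinocyte-like nuclei 105 were tested and 0 passed. At an unadjusted p under 0.05, 21 were higher and 8 lower in MGHS, where 8.5% of all genes were higher and 7.93% lower at that level. The median log2 fold change of the 105 was 0.21, against 0.01 for all genes, and no test of the lists was made.

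**Figure D5:**
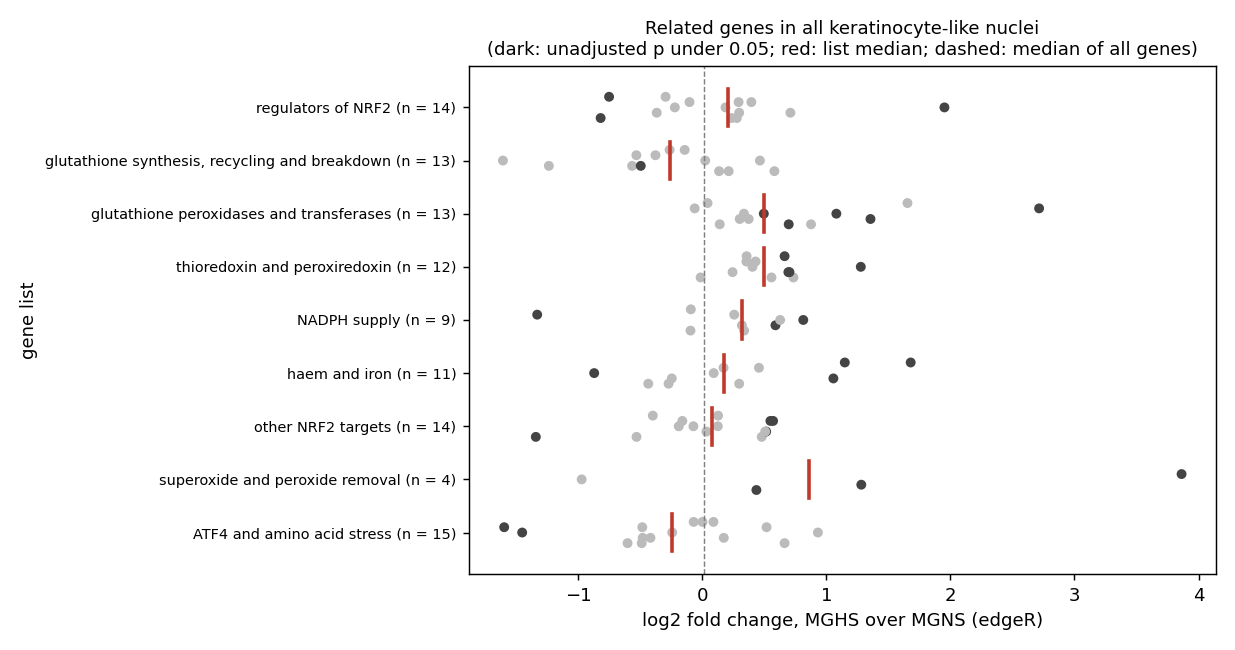
Log2 fold change, MGHS over MGNS, of 105 related genes in all keratinocyte-like nuclei, by list; dark points had an unadjusted p under 0.05, red bars are list medians and the dashed line is the median of all genes. Glutathione synthesis, recycling and breakdown and ATF4 and amino acid stress have medians below the dashed line.

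Among regulators of NRF2 (14 tested, median 0.21), 1 was higher and 2 lower at an unadjusted p under 0.05. SESN2, a stress-induced sestrin, had 83.6, 77.35 and 38.5 CPM in MGHS 1 to 3, against 11.4, 23.9 and 26.6 CPM in MGNS 1 to 3 (1.95 ± 0.44 SE, edgeR adjusted p = 0.158). Within basal-like and spinous-like nuclei SESN2 overlapped between the groups (0.59 ± 0.65 SE and -0.11 ± 0.58 SE). BACH1, a repressor of HMOX1 and of other genes with NRF2 sites, had 21.4, 23.5 and 20.03 CPM in MGHS 1 to 3, against 34.7, 71.4 and 31.6 CPM in MGNS 1 to 3 (-0.82 ± 0.32 SE, adjusted p = 0.268). It lay lower in every MGHS animal in granular-like nuclei as well (-0.68 ± 0.38 SE, adjusted p = 0.479), where 11.5% of tested genes lay lower in this way. DPP3, which can bind KEAP1, had -0.75 ± 0.21 SE and MAFF, a small MAF partner of NRF2, 0.71 ± 0.31 SE.

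Of 13 tested genes of glutathione synthesis, recycling and breakdown, 0 were higher and 1 was lower at an unadjusted p under 0.05, with a median of -0.26. SLC3A2, the heavy chain that carries SLC7A11 to the membrane, had 19.9, 23.7 and 24.2 CPM in MGHS 1 to 3, against 38.9, 33.6 and 40.3 CPM in MGNS 1 to 3 (-0.50 ± 0.18 SE, edgeR adjusted p = 0.248). The other 3 of smallest p were SLC7A5 (-1.61 ± 0.73 SE), GGT7 (-1.24 ± 0.62 SE) and GGT5 (0.58 ± 0.29 SE). Of 13 glutathione peroxidases and transferases, 5 were higher and 0 lower, with a median of 0.50. GPX1, a selenium-dependent peroxidase that spends glutathione on hydrogen peroxide, passed in 1 of the 4 keratinocyte layers. In cycling nuclei it had 438, 314 and 556 CPM in MGHS 1 to 3, against 104.2, 43.8 and 63.7 CPM in MGNS 1 to 3 (2.76 ± 0.36 SE, adjusted p = 0.0460; 6 of 10338 genes, 0.058%, passed in this class). It no longer passed without MGHS 1 (adjusted p = 0.197) or without MGHS 3 (adjusted p = 0.156). Microsomal MGST3 had 1.08 ± 0.36 SE, MGST1 0.70 ± 0.29 SE and GPX4, which reduces lipid hydroperoxides, 1.36 ± 0.47 SE in all keratinocyte-like nuclei.

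Of 12 thioredoxin and peroxiredoxin genes, 4 were higher and 0 lower (median 0.49), led by SESN3 (0.69 ± 0.20 SE), TXN (1.28 ± 0.46 SE), PRDX2 (0.70 ± 0.29 SE) and PRDX5 (0.66 ± 0.28 SE). All 4 overlapped between groups. NADPH supply (9 tested, 2 higher, 1 lower, median 0.32) had MTHFD2 lower in every MGHS animal (-1.33 ± 0.37 SE, edgeR adjusted p = 0.193), IDH1 at 0.59 ± 0.20 SE, TALDO1 at 0.81 ± 0.33 SE and ME1 at 0.63 ± 0.27 SE. Haem and iron genes (11 tested, 3 higher, 1 lower, median 0.17) included SLC48A1, a haem transporter, at 1.68 ± 0.36 SE, the ferritin light chain FTL at 1.15 ± 0.35 SE and the biliverdin reductase BLVRB at 1.06 ± 0.34 SE. SLC11A2, an importer of divalent metals, had -0.87 ± 0.20 SE. Of the 11 haem and iron genes, 3 lay higher and 3 lower in MGHS without overlap, where 4.7% of all genes lay higher and 25.1% lower. These 4 named genes were among them.

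Other NRF2 targets (14 tested, 3 higher, 1 lower, median 0.08) included ABCC1, an exporter of glutathione conjugates, at -1.34 ± 0.40 SE, with ABCC5 at 0.57 ± 0.18 SE, EPHX1 at 0.52 ± 0.18 SE and UGDH at 0.55 ± 0.23 SE. For superoxide and peroxide removal (4 tested, 3 higher, 0 lower, median 0.86), the extracellular dismutase SOD3 had 22.1, 27.0 and 15.6 CPM in MGHS 1 to 3, against 0.87, 2.13 and 2.21 CPM in MGNS 1 to 3 (3.86 ± 0.42 SE, edgeR adjusted p = 0.0807). SOD1 had 1.28 ± 0.36 SE, CAT 0.44 ± 0.15 SE and the mitochondrial SOD2 -0.97 ± 0.42 SE. Of 15 ATF4 and amino acid stress genes, 0 were higher and 2 lower (median -0.24): SLC7A1, a cationic amino acid transporter (-1.45 ± 0.29 SE, adjusted p = 0.151), and TRIB3 (-1.60 ± 0.61 SE). PPP1R15A had 0.52 ± 0.23 SE and PHGDH 0.93 ± 0.51 SE, both overlapping between groups.

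For each member the 3 genes with the most similar pattern were found by Pearson's r of log2(CPM + 1) over 84 sums, 14 classes in 6 animals, which share libraries and depth; the values are descriptions. GCLM was closest to MTARC2 (r = 0.86), SLC35D1 and AKAP1, and GCLC to IPPK (r = 0.70), MACC1 and NUDT4. HMOX1 was closest to CREG1 (r = 0.68), PRSS22 and CTSA, and SLC7A11 to TMCC3 (r = 0.69), GK and CD83. NFE2L2 was closest to FXYD6 (r = 0.89), LIMA1 and RNF217, KEAP1 to PSMA3 (r = 0.87), TUBGCP2 and SARNP, and TXNRD1 to BNIP2 (r = 0.93), ZDHHC17 and EVL. SRXN1 was closest to CDPF1 (r = 0.73), SDHA and HSPA9, and NQO1 to SERF1B (r = 0.78), HSPB1 and NPDC1. Between the members themselves, NFE2L2 and SRXN1 were closest (r = 0.59), and GCLC and GCLM, the partners of 1 enzyme, had r = -0.04.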

How the data were processed

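The deposited values are unscaled UMI counts, whole numbers for every gene in every barcode, per the file headers. Cell Ranger is named in version 8.0.0 per the file headers and 2.1.1 per the submitters' processing notes; the sources used here do not state the genome build, annotation, strand setting or barcode rule. All 26741 gene numbers matched NCBI symbols (table of ARS-UI_Ramb_v3.0, no coordinates taken). The members and lists were chosen with earlier results of these data known.

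Barcodes under 300 genes, over 10% mitochondrial UMIs or among the top 0.5% by UMIs were dropped. Doublets were scored against simulated ones (2 per nucleus, 50 neighbours) and the top 0.8% per 1000 nuclei removed, 2949 in all. Counts scaled to 10000 with 2000 variable genes, 30 principal components, 5 neighbours per library and Leiden clustering (igraph 0.11.9, resolution 0.8, finer 2.0) gave 25 clusters, named from markers after clustering. Classes with 20 nuclei in every animal, and unnamed clusters over 5% of nuclei, were tested.

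UMIs were summed per animal and class. edgeR 4.0.16 (filterByExpr minimum 10, TMM, robust quasi-likelihood F test, Benjamini-Hochberg over all genes tested) was run in R 4.3.3, checked on simulated data; its SE is the fold change over the root of F. DESeq2 1.42.0 and limma 3.58.1 (voom) were alternatives. Animals are separate sheep; 3 against 3 cannot give an exact permutation p under 0.1. Named genes were the 9 members and, per list, the 4 of smallest p in all keratinocyte-like nuclei; GPX1 in cycling nuclei was added after values were seen. The labels do not say that replicate numbers pair animals, and numbers were not treated as pairs. In all keratinocyte-like nuclei same-numbered animals of the groups did not deviate together (r from -0.13 to 0.05 over 3 pairs), which cannot exclude pairing. Promoter and protein sequences were not analysed here.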

Additional observations from a re-analysis of the deposited data

Results flagged for a closer look

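Barcodes with under 300 genes, which entered no class and no test, held more HMOX1 and GCLM in every MGHS library than in any MGNS library, as did 3.65% of the 9508 genes compared there. HMOX1 had 182, 46.9 and 53.5 CPM in MGHS 1 to 3, against 6.37, 1.82 and 15.2 CPM in MGNS 1 to 3. GCLM had 118, 104 and 160 CPM in MGHS 1 to 3, against 81.3, 83.0 and 60.8 CPM in MGNS 1 to 3. The HMOX1 values rest on 137, 40 and 58 UMIs in MGHS 1 to 3, against 4, 2 and 12 in MGNS 1 to 3. GCLC, KEAP1 and TXNRD1 in the same barcodes were lower in every MGHS library, as were 26% of the genes. GCLC had 21.2, 14.1 and 60.9 CPM in MGHS 1 to 3, against 82.9, 73 and 78.5 CPM in MGNS 1 to 3. KEAP1 had 10.6, 18.8 and 14.8 CPM in MGHS 1 to 3, against 22.3, 21.9 and 24.1 CPM in MGNS 1 to 3. TXNRD1 had 14.6, 15.2 and 13.8 CPM in MGHS 1 to 3, against 30.3, 21.9 and 17.7 CPM in MGNS 1 to 3. SLC7A11 overlapped, with 10.6, 5.86 and 17.5 CPM in MGHS 1 to 3, against 9.56, 10.9 and 45.6 CPM in MGNS 1 to 3.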

How the results depend on the processing

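No member passed in any class with edgeR as reported, and none passed in any of the fits that left out 1 animal (0 to 0 in every class). DESeq2 called 4 members in all keratinocyte-like nuclei, 4 in basal-like, 3 in spinous-like, and 1 each in granular-like, cycling, T or NK-like and cluster 0 nuclei. Among all genes it called 355 in basal-like, 218 in spinous-like, 369 in granular-like, 139 in cycling, 67 in T or NK-like and 51 in cluster 0 nuclei. limma-voom called 1 member in basal-like nuclei, among 43 genes, and 1 in cycling nuclei, among 24. The equal average of the 4 layers called 2 members. Without a filter on low counts, 1 member passed in basal-like, 3 in cycling, 1 in T or NK-like, 1 in CCL22-led, 2 in smooth muscle or pericyte-like and 3 in cluster 0 nuclei. For the equal average and the unfiltered fits by class, the number of all genes that passed is not given here. With a replicate block, HMOX1 passed in cluster 0 (1 member, adjusted p = 0.0402) and no other member call changed. The labels do not say that the numbers pair animals. Genes called in all keratinocyte-like nuclei numbered 1 as reported, 837 with DESeq2, 47 with limma-voom, 14 without the filter, 6 with library totals as the scale, 0 with the replicate block, 0 without the top 10% of doublet scores, and 0 to 183 with 1 animal left out, the 183 without MGHS 3. The layer test called 0 to 1 members with 1 animal left out. Of 23 log2 fold changes recomputed, 21 kept their direction throughout. NFE2L2 in all keratinocyte-like nuclei turned to -0.0044 with limma-voom, -0.18 with library totals and -0.035 without MGHS 3, and KEAP1 to 0.013 with limma-voom and 0.061 without MGNS 2 (with 1 animal left out, -0.035 to 0.17 for NFE2L2 and -0.14 to 0.061 for KEAP1). The library totals moved the median of all genes in these sums by as much as NFE2L2 (0.24); the causes of the other turns were not tested. The planned fit of each granular-like cluster alone gave no value, since the class was 1 cluster. Fits of single clusters and library totals were added after seeing the data. Sparse counts, mostly of HMOX1, SLC7A11, SRXN1 and NQO1, limited which classes could be tested. Within keratinocytes, HMOX1 in cycling nuclei and SLC7A11 and SRXN1 in granular-like nuclei were not tested.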
